A study of Schizosaccharomyces pombe with 3 samples.

Results

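The 268 features described here are open reading frames (ORFs) of nuclear genes in the fission yeast Schizosaccharomyces pombe. They had the lowest ratios of DNA recovered by Tup12 immunoprecipitation over input DNA. They were chosen on the values themselves: a mean log2 ratio of immunoprecipitated over input DNA at or below -1.5 over 3 arrays, with 0 set at the median of each array. They are 268 of 3218 nuclear ORF features that gave a value on all 3 arrays (8.33%), among 5461 such features in all. The ratios of these features are therefore a description of the choice and are given with no test. The rule's list of names also took in cox2, at -2.29, -4.004 and -1.82 on replicates 1, 2 and 3. The reference annotation places cox2 on the mitochondrial genome, so it is not counted as a nuclear ORF and is left out of what follows.

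All 3 arrays hold DNA of the same kind, from cells with a GFP-tagged Tup12 that were growing in mid-log phase in YES, a rich medium. DNA recovered with an antibody against GFP, listed as Cy5, was hybridised beside input DNA of the same strain, listed as Cy3, on spotted arrays of intergenic regions and ORFs. The labels call the 3 experiments separate and list no dye swap, and an untagged strain was not analysed here. With 1 group there is no comparison of conditions, and the spread is that between 3 arrays, which may be partly technical.

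Tup12 is a corepressor of the Tup1 family. Such proteins do not recognise DNA themselves; they are brought to promoters by DNA-binding repressors and act there together with Ssn6 on histones and on the transcription machinery. A ratio below the array median means less antibody-recovered DNA relative to input than at the median feature, not a measured loss of protein.

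The coding starts of 5 members are shown to make the kind of DNA concrete: the 3 lowest whose first coding exon holds 120 bases, and the members with the highest and the lowest GC content. They were read from the ASM294v3 reference by gene name; the sources used here do not give the stretches amplified for the array or its genome build. Capitals mark the start codon, and each stretch lies in the first coding exon.
atp12 (chrI:1487936-1488055, minus strand): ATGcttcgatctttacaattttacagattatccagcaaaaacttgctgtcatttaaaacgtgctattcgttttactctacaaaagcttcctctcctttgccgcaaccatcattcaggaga
dbl7 (chrII:1261721-1261840, minus strand): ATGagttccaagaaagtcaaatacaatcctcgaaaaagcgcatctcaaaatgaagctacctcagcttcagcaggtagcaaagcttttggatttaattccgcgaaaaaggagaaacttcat
rrp42 (chrII:4231953-4232072, plus strand): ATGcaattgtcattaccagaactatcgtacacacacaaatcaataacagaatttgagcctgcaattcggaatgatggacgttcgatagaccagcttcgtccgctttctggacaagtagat
lsd90 (chrII:1950136-1950255, minus strand): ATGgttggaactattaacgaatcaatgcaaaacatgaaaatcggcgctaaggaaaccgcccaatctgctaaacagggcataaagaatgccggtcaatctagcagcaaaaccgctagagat
mrpl15 (chrII:4363563-4363682, minus strand): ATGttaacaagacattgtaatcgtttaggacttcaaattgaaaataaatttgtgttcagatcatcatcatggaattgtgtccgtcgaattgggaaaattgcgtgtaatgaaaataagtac
GC content over the whole coding sequence was 38.9% for atp12, 39.4% for dbl7, 40.0% for rrp42, 53.8% for lsd90 and 34.3% for mrpl15. The first 3 lay close to the median of all nuclear ORF features, 39.9%.

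The lowest member was atp12, which encodes an assembly chaperone of the mitochondrial F1-ATPase, with log2 ratios of -2.58, -3.40 and -2.60 on replicates 1, 2 and 3 (mean -2.86 ± 0.47, SD, n = 3). The ORF dbl7 followed at -2.12, -3.67 and -2.18 (mean -2.65 ± 0.88). Next came vma11, a proteolipid subunit of the vacuolar proton pump, at -2.31, -3.80 and -1.72 (mean -2.61 ± 1.07). For each of them replicate 2 was the lowest array, and the other 2 arrays lay closer together. The exosome subunit gene rrp42, whose complex degrades and trims RNA, stood at -2.23, -3.50 and -1.96 (mean -2.56 ± 0.82).

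The rest of the 12 lowest had varied annotated products. The metallopeptidase gene SPAC607.06c stood at -2.52 ± 1.08, and SPBC56F2.07c, an AAA ATPase gene of ribosome biogenesis, at -2.52 ± 1.27. The U2 snRNP gene sap61, a spliceosome component, gave -2.47 ± 1.22, and mrpl6, a protein of the large mitochondrial ribosomal subunit, gave -2.46 ± 0.73. The autophagy gene atg3, whose product conjugates Atg8 to lipid, gave -2.45 ± 0.80. SPAC9.11, an uncharacterised gene next to atp12, gave -2.43 ± 0.62, the chloride channel gene SPBC887.02 gave -2.40 ± 1.59 and the O-mannosyltransferase gene ogm4 gave -2.38 ± 1.13. The SDs are large against the steps between neighbours in this order, so the order within the 12 is not resolved by 3 arrays.

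**Figure D1:**
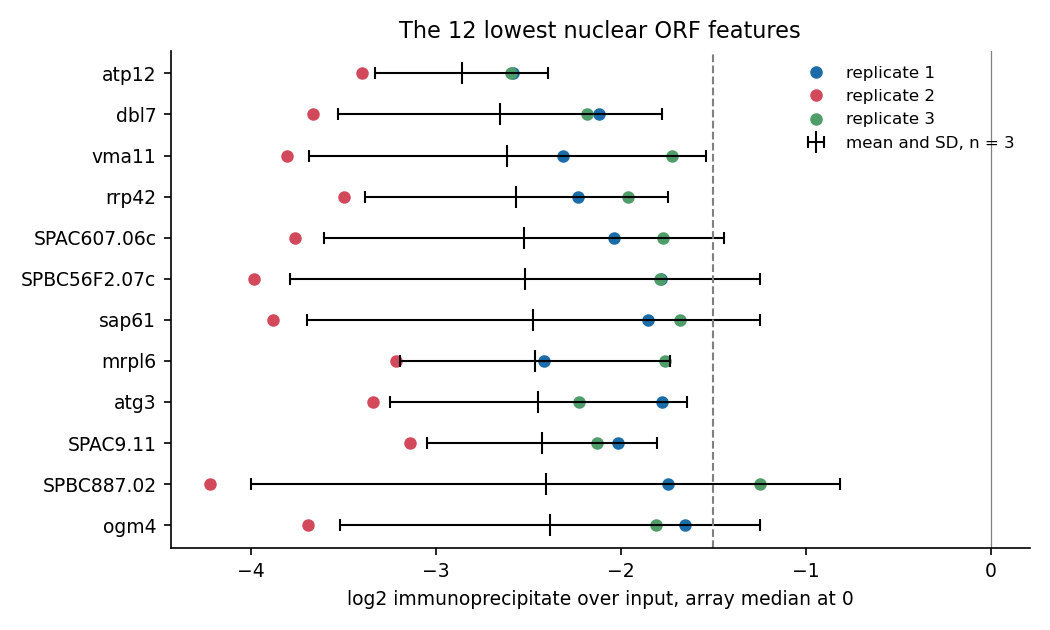
Log2 ratio of immunoprecipitate over input (horizontal axis, array median at 0) for the 12 lowest nuclear ORF features, 1 point per array, with the mean and SD (n = 3) as a bar; the dashed line is the threshold of -1.5. On each of the 12 rows replicate 2 is the lowest point, down to -4.22 for SPBC887.02.

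Among the 268 members the mean ratio ran from -2.86 to -1.503 with a median of -1.74, and 65 lay at or below -2. All 268 were below 0 on each of the 3 arrays, and 244 were at or below -1 on each. Only 91 were at or below -1.5 on every array, which is 2.83% of nuclear ORF features. At an adjusted p under 0.05 in limma, 268 of 268 were depleted, against 38.7% of nuclear ORF features, a count that follows from the rule and carries no information of its own. Just inside the threshold lay B8647-2 (-1.504), an array name that matched no gene, sec31 (-1.504), SPBC543.11c (-1.503) and npr2 (-1.503). Just outside lay SPBC25B2.12c (-1.499), the phosphatase gene nem1 (-1.496), tap42 (-1.495) and yih1 (-1.493). The SDs of these 8, from 0.19 to 0.86, are far wider than the gap, so the threshold divides a continuous distribution.

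Replicate 2 weighed most. It was the lowest of the 3 arrays for 222 members, replicate 1 for 25 and replicate 3 for 21. The members' medians were -1.62, -2.23 and -1.58 on replicates 1, 2 and 3, against -0.33, -0.52 and -0.31 for the other 2950 nuclear ORF features. The spread over all nuclear ORF features was also widest on replicate 2 (SD 1.08, against 0.83 and 0.93). In ranks within an array the difference was small: the median member stood at the 4.96th, 5.30th and 5.75th percentile of nuclear ORF features on replicates 1, 2 and 3, and 249, 253 and 247 members were in the lowest 20%.

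**Figure D2:**
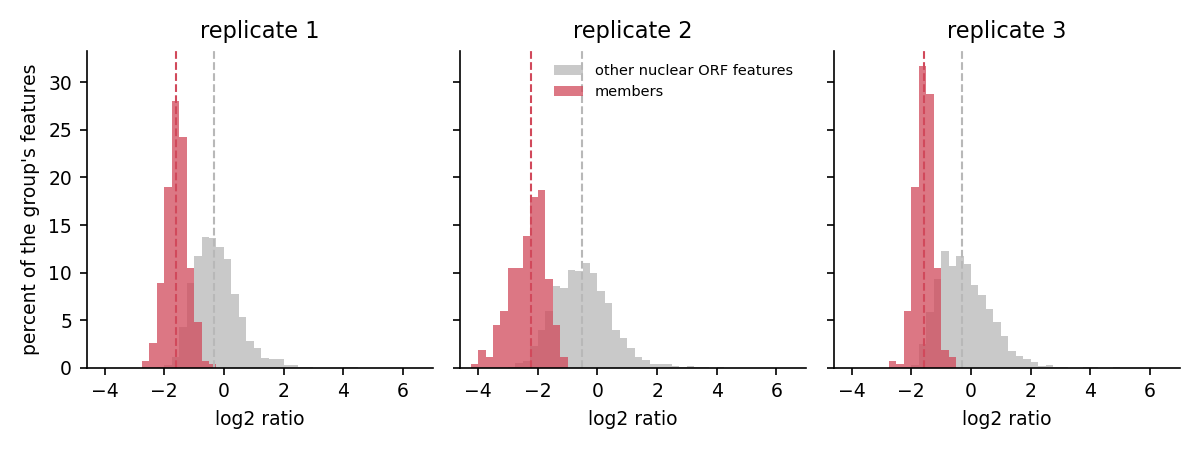
Distribution of log2 ratios on each array as percent of each group's features, for the 268 members and the other 2950 nuclear ORF features, with dashed lines at the medians. The members sit low on all 3 arrays and reach furthest on replicate 2, where their median is -2.23.

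Members differed in how far the arrays agreed. The SPX/EXS domain gene spx2 gave -1.62, -1.66 and -1.65 (SD 0.02), the smallest spread of all. The homocysteine methyltransferase gene SPAC57A7.07c (-1.93, -1.99 and -1.88) and the splicing factor gene spf30 (-1.67, -1.77 and -1.67) came next. At the other end, SPBC887.02 gave -1.74, -4.22 and -1.248. The fructose-2,6-bisphosphate phosphatase gene fpb26 gave -1.72, -3.92 and -1.27, and the phosphate transporter gene pho843 gave -0.85, -3.30 and -1.08. In all 3 of these the low mean rests on replicate 2, and 24 members had an SD above 1. The median SD was 0.47 for members and 0.42 for other nuclear ORF features.

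The same measure on an array that took no part in the choice shows how far the low ratios carried over. Features chosen on replicates 1 and 3 alone numbered 189, and all 189 were below 0 on replicate 2, with a median of -2.11 against -0.55 for the features not chosen. Of them 156 (82.5%) also reached -1.5 there, against 16.3% of the others. The 360 features chosen without replicate 1 had a median of -1.40 on it, 355 were at or below 0, and 146 (40.6%) reached -1.5, against 2.10% of the others. The 359 chosen without replicate 3 had a median of -1.39 on it, 343 were at or below 0, and 138 (38.4%) reached -1.5, against 3.57%. Most features not chosen were also at or below 0 on the held-out array: 72.5% on replicate 2, 65.7% on replicate 1 and 63.1% on replicate 3. The held-out medians on replicates 1 and 3 were nearer 0 than those on the arrays that made the choice, -1.76 and -1.80. No p is given, because a sign-flip test over 3 arrays cannot go below 0.25.

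The low ratios were carried more by a bright input than by a dim immunoprecipitate. In units of 1000, the median integrated input intensity of accepted spots was 186, 312 and 251 for members on replicates 1, 2 and 3, against 98.9, 163 and 126 for other nuclear ORF features. On the log2 scale members lay 0.91, 0.94 and 0.99 higher in input (mean 0.95 ± 0.04). In the immunoprecipitate they lay 0.29, 0.71 and 0.19 lower (mean difference -0.40 ± 0.27). Both channels enter the ratio that chose the members, so these differences are a description. Input was above the nuclear ORF median on every array for 252 of 268 members, against 39.8% of nuclear ORF features, and the immunoprecipitate was below it on every array for 135, against 29.1%. Of the 805 nuclear ORF features in the brightest 25% of input, 191 were members (23.7%), and of the 805 in the dimmest 25% none was.

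Individual members showed both patterns. For atp12 the input lay 1.91, 1.96 and 2.50 above the ORF median in log2 units, and the immunoprecipitate at -0.17, -0.70 and 0.38. The COPII coat gene sec31 was a member although its immunoprecipitate was 1.90, 1.57 and 1.52 above the ORF median, while its input was 2.77, 2.55 and 2.45 above it. The meiotic gene mug109 was alike, with an immunoprecipitate of 1.30, 2.11 and 1.17 and an input of 2.67, 2.47 and 2.57. In contrast, cdc20, the catalytic subunit gene of DNA polymerase epsilon, had an ordinary input (0.33, -0.09 and 0.28) and an immunoprecipitate of -1.48, -1.85 and -1.19. The alpha-glucanase gene agn2 had an input below the ORF median on every array (-0.71, -0.08 and -0.20), one of only 3 such members, and an immunoprecipitate of -1.04, -2.29 and -1.22. In 34 members the immunoprecipitate was above the ORF median on every array.

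**Figure D3:**
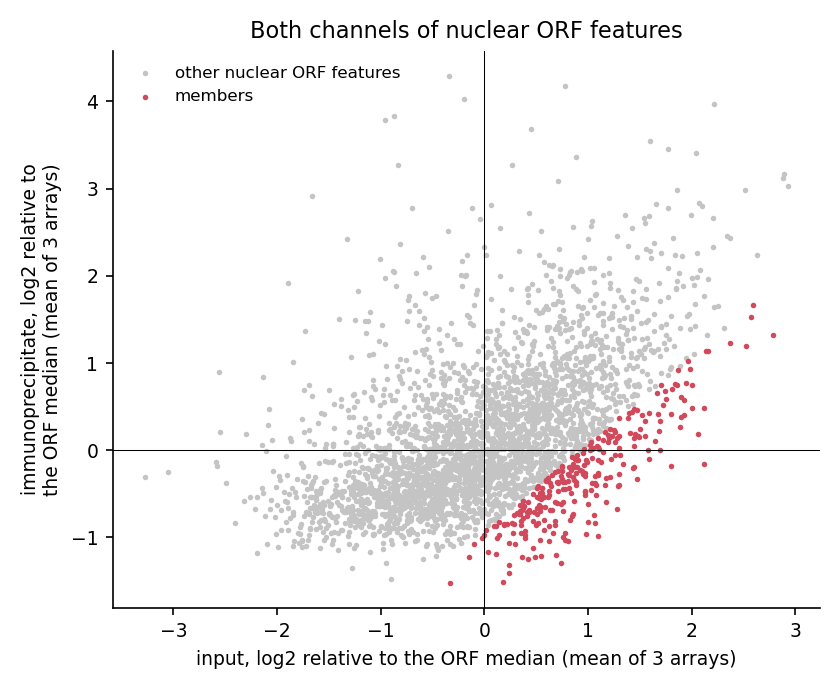
Input (horizontal) and immunoprecipitate (vertical) of nuclear ORF features in log2 units relative to the ORF median, each point the mean of 3 arrays, members in red and the other features in grey. Members lie along the lower right edge, from dim immunoprecipitate at ordinary input to bright input with an immunoprecipitate above the median.

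Immunoprecipitate signal lay near that of accepted spots that should hold no yeast DNA, for members and for other features. In units of 1000, its median for members was 86.7, 53.6 and 98.9 on replicates 1, 2 and 3. Other nuclear ORF features gave 106, 87.7 and 113, and intergenic features gave 109, 107 and 123. Negative control spots gave 72.1, 83.7 and 102, over the 42.1%, 49.6% and 45.3% of them that were accepted. Members thus lay above the accepted controls on replicate 1 and below them on replicates 2 and 3. Rejected control spots, the larger part, are not in these medians, so the level of the controls as a whole may differ. The share of member spots dimmer than the control median was 30.5%, 79.8% and 52.1%, against 20%, 46.6% and 44.2% for other nuclear ORF features. How far unspecific signal sets the members' values was not tested. By the flags, 250 of 268 members had all 6 spots accepted (93.3%), against 78.1% of other nuclear ORF features. Without immunoprecipitate spots dimmer than the control median, only 56 of 268 members kept a value on all 3 arrays. Among all 3218 nuclear ORF features 1317 did.

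Intergenic features that carry a member's gene name on the array were mostly near or above the array median. Such a feature was on the array for 254 members but gave a value on all 3 arrays for only 83, under 80% of them, so what follows holds for those 83 and not for the members at large. Their median was 0.31, with 0.33, 0.17 and 0.17 on replicates 1, 2 and 3, against 0.61, 0.68 and 0.58 for the 1273 measured features of other ORFs. They were thus lower on each array, by more than the spread between arrays (SDs of the array medians 0.09 and 0.05), and no p is given for this difference. In limma at an adjusted p under 0.05, 26 of the 83 were enriched (31.3%), against 42.2% of all intergenic features, and 8 were depleted (9.64%), against 7.77%. All 83 lay above their own ORF, 80 of them on every array, by a median of 2.06, which follows from the choice of low ORFs. Among the 1273 other ORFs the intergenic feature was above the ORF for 1023, on every array for 758, by a median of 0.87. With 0 set at the median of ORF spots, all ratios rose by 0.43, and 42 of the 83 were then enriched (50.6%, against 60.5%) and 2 depleted (2.41%, against 2.10%).

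The 4 highest of these intergenic features stood beside low ORFs, as the choice of members implies. The proteasome gene rpn12 had 0.79, 1.35 and 3.08 at its intergenic feature (mean 1.74 ± 1.20) and -1.69 ± 0.40 over its ORF. The ribosomal protein gene rps30-1, which has a close paralogue that could share signal, had 1.54 ± 0.56 and -2.19 ± 0.55. The UBA domain gene ucp7 had 1.51 ± 0.36 and -1.75 ± 0.44, and the sterol transfer gene osh3 had 1.49 ± 0.49 and -1.60 ± 0.42. All 4 intergenic features were enriched (limma adjusted p between 7.9e-05 and 1.1e-04). At a few members both were low. The guanine nucleotide exchange factor gene sec74 had -1.37, -1.73 and -2.003 at the intergenic feature (mean -1.70 ± 0.32) and -2.02 ± 0.30 over the ORF, and the sporulation gene spo3 had -1.18 ± 0.20 and -1.51 ± 0.28. B8647-2 (-0.99 ± 0.79) and the uncharacterised SPCC622.01c (-0.90 ± 0.45) followed. These 4 were depleted, with limma adjusted p of 1.8e-05, 8.9e-04, 0.0080 and 0.010.

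**Figure D4:**
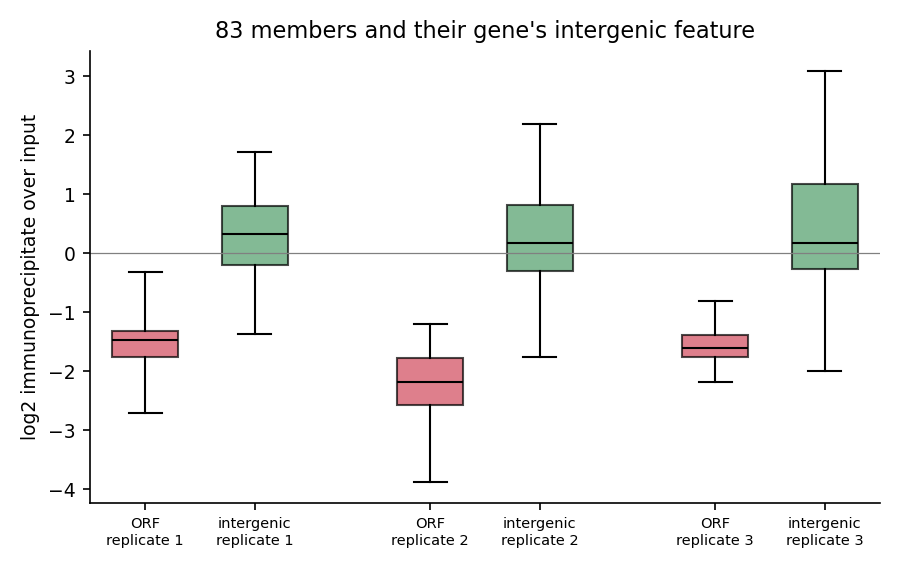
Log2 ratios of the 83 members whose gene also has a measured intergenic feature, as boxes (quartiles, line at the median, whiskers to the lowest and highest value) for ORF and intergenic features on each array. The intergenic medians of 0.33, 0.17 and 0.17 stand above the ORF boxes on all 3 arrays.

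Members were unevenly spread over the array surface. The slide is printed in 48 blocks, and 12 of them held 195 of the members (72.8%) but 32.6% of the nuclear ORF features measured, while 12 others held none. Block 21 held 27 members among 89 measured ORF features (30.3%), block 13 held 22 of 93 (23.7%) and block 25 held 21 of 89 (23.6%). In those blocks the median of all ORF features was also low, at -0.95, -0.93 and -1.07, and the intergenic features were low with them, at -0.07, -0.16 and 0.10. Over the 41 blocks with at least 20 features of each kind, ORF medians ran from -1.07 to 0.45 and intergenic medians from -0.16 to 1.36, and they varied together (r = 0.80; the blocks share arrays). Within blocks, rows 1 to 3 held 113 members of 790 ORF features (14.3%), and rows 4 to 11 held 155 of 2428 (6.38%).

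When each block was set to its own median, a choice made after seeing the data, 140 of the 268 stayed at or below -1.5 and 32 other nuclear ORF features joined them. The members' median became -1.52, against -0.40 for other nuclear ORF features, and all 268 stayed below 0, between -2.42 and -0.97. In limma 268 were called depleted, against 43.2% of nuclear ORF features. Both of these counts of 268 follow largely from the choice on the same arrays. The members' input remained 0.92 ± 0.01 above that of other ORF features within blocks, while their immunoprecipitate differed by -0.04, -0.46 and 0.14 on replicates 1, 2 and 3, without a common sign. Of the 12 lowest members, 3 were also among the 12 lowest after this centring, atp12 (-2.32 ± 0.49), SPBC56F2.07c (-2.18 ± 1.40) and dbl7 (-2.16 ± 0.92). The lowest was then the peptide N-glycanase gene ngl1 at -2.42 ± 0.92, followed after atp12 by the spliceosomal gene cwf29 (-2.32 ± 0.39) and by sec74 (-2.31 ± 0.20).

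**Figure D5:**
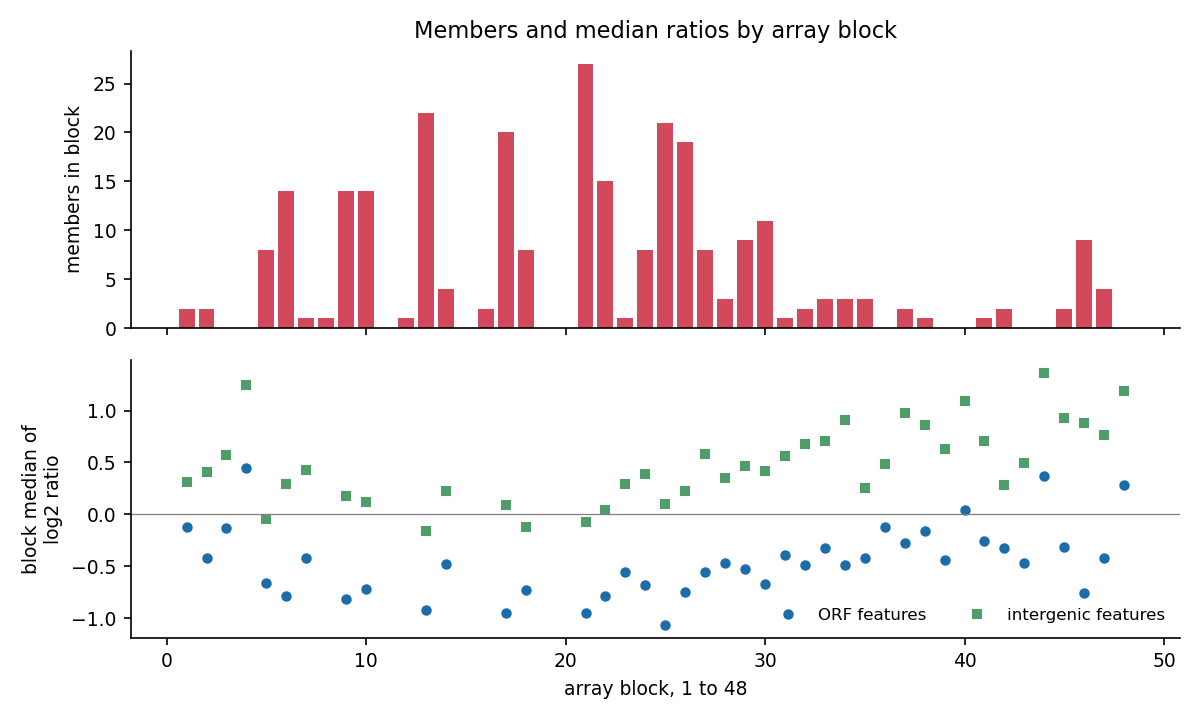
Number of members in each of the 48 array blocks (upper panel) and the median log2 ratio of ORF and intergenic features in the 41 blocks with at least 20 of each (lower panel). Blocks rich in members, such as 13, 21 and 25, have low medians for both kinds of feature.

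Members had other members as genome neighbours more often than other ORFs had, and adjacent ORFs were mostly printed at matching positions of different blocks. Taking each adjacent pair from both sides, members had 383 measured neighbours, of which 80 were members (20.9%), against 8.03% for other ORFs. An ORF with neighbours on both sides can thus be counted more than once. In all, 40 adjacent pairs were made only of members. In 76.7% of measured adjacent pairs the 2 ORFs are printed in the same row and column of blocks that are 8 apart. Among pairs laid out that way 22.9% of members' neighbours were members, against 8.97%; among the remaining pairs it was 4 of 51 (7.84%), against 5.11%. Genome order and print order cannot be told apart for 38 of the 40 pairs.

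Runs of 3 adjacent members occurred 5 times. On chromosome I, spo3 (-1.51), vma11 (-2.61) and fpb26 (-2.31) followed each other, in blocks 5, 13 and 21. On chromosome II one run was sim3, a chaperone gene of the centromeric histone CENP-A (-1.55), the GTPase-activating protein gene gyp1 (-1.72) and the transporter gene SPBC530.02 (-1.82). A further run was the sulfhydryl oxidase gene erv2 (-1.62), the spliceosomal gene cwf25 (-1.83) and the nuclease gene fan1 (-1.64). Another joined SPBC8D2.18c, an adenosylhomocysteinase gene (-2.14), sec31 (-1.504) and the kinase gene mde3 (-2.07), the last of which overlaps sec31 on the opposite strand in the annotation. The fifth run lay on chromosome III. The atp12 gene itself overlaps the gene of SPAC9.11, also a member, in the annotation. Whether their array fragments overlap is not known.

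By chromosome, 125 of 1185 measured ORFs on chromosome II were members (10.5%), against 99 of 1336 on chromosome I (7.41%) and 36 of 558 on chromosome III (6.45%). The median of all ORF features was lowest on chromosome II on each array, at -0.49, -0.77 and -0.48, against -0.41, -0.62 and -0.39 on chromosome I and -0.26, -0.42 and -0.30 on chromosome III. After block centring these medians were -0.57, -0.46 and -0.30 on chromosomes II, I and III, in the same order. Block centring leaves differences between the rows of a block in place. Chromosome was not separated from print row here. Distance to the chromosome end made little difference: the share of members in the 5 equal bins of distance ran from 7.47% to 9.59%, and was 7.47% both in the bin nearest the ends and in the one farthest away.

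Base composition and length differed little. The 260 members matched to a coding sequence had a median GC content of 39.6% (quartiles 38.2% and 41.2%), against 40.0% (38.1% and 42.0%) for 2818 other ORFs. When ORFs were divided into 4 equal bins of GC content, members were fewest in the highest bin, with 45 of 770 (5.84%), and most in the second lowest, with 85 of 769 (11.1%). Across 3078 nuclear ORFs GC content and ratio were nearly unrelated (r = 0.07). Members rich in GC included lsd90 (53.8%), which gave -2.15 ± 0.73, and the ribosomal protein gene rpl20-1 (47.8%, -1.60 ± 0.51). The poorest were mrpl15 (34.3%, -2.28 ± 0.82), the DNA polymerase delta subunit gene cdc27 (34.3%, -2.14 ± 0.57) and npr2 (34.8%, -1.503 ± 0.38). Median coding length was 1302 bases for members and 1209 for others, and members made up 6.36% of the shortest 25% and 9.49% of the longest 25%. Members had a single coding exon in 52.7% of cases and other ORFs in 57.9%.

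In function the members were mixed: 132 of 268 fell into at least 1 of 20 classes formed from annotation words or symbols, and the classes overlap. Beside the 8.33% of all nuclear ORF features that are members, with a median ratio of -0.49, the shares in classes ran from none to 33.3%. These shares are counts of the choice itself and no test was made. A class holds only genes whose annotated product or symbol has its words, so other members of like function are not counted in it. The products of the spliceosomal genes cwf29 and cwf25, the translocon gene sec61 and the DNA ligase gene adl1 (-2.22 ± 0.66), for example, lack the words of the classes for splicing, secretion and DNA repair.

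The classes for mitochondria and energy supply had shares above that of all nuclear ORF features. Of 57 ORFs annotated as mitochondrial, 8 were members (14.0%) and the class median was -0.59. Apart from the nucleotide transporter gene rim2 (-1.78 ± 0.83) these were ribosomal protein genes, led by mrpl6, by mrpl15 at -2.21, -3.13 and -1.49, and by mrpl37 at -1.54, -3.50 and -1.71. Of 9 measured genes of the ATP synthase and its assembly 3 were members: atp12, the gamma subunit gene atp3 (-1.64, -2.40 and -1.19) and the F0 subunit gene atp7 (-0.99, -1.85 and -1.71). The class was not low as a whole, with atp5, the F0 delta subunit gene, at 0.65, 1.25 and 0.82, and a median of -0.46.

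The classes for protein synthesis and turnover had shares on both sides of that of all nuclear ORF features. In the translation class 20 of 199 were members (10.1%, class median -0.37), among them the initiation factor gene eif21 at -2.15, -2.77 and -2.23. In ribosome assembly 7 of 63 were (11.1%), with the rRNA processing genes fyv7 (-1.85 ± 0.51) and faf1 (-1.75 ± 0.33). In the proteasome 4 of 26 were (15.4%), and the regulatory particle genes rpt1 (-2.08, -2.37 and -1.43) and rpn6 (-1.95, -2.31 and -1.58) were lowest. Of 75 genes whose product names ubiquitin 4 were (5.33%), and the lowest of those 4 was the conjugating enzyme gene ubc8 at -2.14 ± 0.65. Only 1 of 61 genes named for tRNA was a member.

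The classes for genes that act on nucleic acids ranged widely. In the class for splicing and mRNA 7 of 59 were members (11.9%), and the lowest of those 7 were sap61, bis1 (-1.97 ± 1.00) and cwf28 (-1.91 ± 0.36). In the class for DNA replication and repair 8 of 56 were (14.3%), and the lowest of those 8 were the recombination gene rti1 (-2.29 ± 0.66), cdc20 (-2.33, -2.50 and -1.95) and ckn1 (-2.21 ± 0.87). In the class for transcription and chromatin 16 of 216 were (7.41%), with sfc2, the gene of the RNA polymerase III factor TFIIIA, at -2.11, -2.92 and -1.99 and the Mediator gene med14 at -2.09 ± 0.48. None of the 9 measured genes of RNA polymerase II subunits was a member. The lowest of them, rpb5, gave -0.96, -1.24 and -1.504, and rpb6 was above 0 on every array (1.19, 0.75 and 1.48).

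The kinase, phosphatase and lipid classes had shares above that of all nuclear ORF features. In the class formed from words for kinases and phosphatases 17 of 131 were members (13.0%, class median -0.72). Phosphatases that do not act on proteins also enter it, such as fpb26 and the nucleotide pyrophosphatase gene npp1. The lowest of the 17 members were fpb26, the kinase gene ppk30 (-2.20 ± 0.79) and sid2, the NDR kinase gene of septation signalling, at -2.03, -2.57 and -1.62. Of 48 genes whose annotation names peroxisomes, lipids or sterols 10 were members (20.8%, class median -0.90). They include vma11, which enters only through the word proteolipid, the oxysterol-binding protein gene osh6 at -1.65, -3.11 and -1.76, and the 3-keto sterol reductase gene erg27 at -1.65, -2.58 and -1.65. In this class 29 of 48 features were depleted and 2 enriched in limma, against 38.7% and 8.20% of nuclear ORF features. The 10 members are among the 29 by the choice. Depleted counts differed by class: 69 of 131 for kinases and phosphatases, 30 of 59 for splicing and 10 of 54 for mug genes. The median of the lipid class stayed low after block centring, at -0.87. Of 54 meiotic mug genes 4 were members (7.41%), although the class median was above 0, at 0.07.

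The remaining classes had shares from 4.52% to 9.72%. Of 153 genes whose product names a transporter, permease or transmembrane protein 9 were members (5.88%), and the lowest of those 9 was the dipeptide transporter gene dal51 at -2.09 ± 0.41. Of 155 oxidoreductase genes 7 were (4.52%), with the glutamate dehydrogenase gene gdh2 at -1.60, -2.30 and -1.89. In the class formed from words for secretion and the vacuole 7 of 72 were (9.72%), among them gpi2 of GPI anchor synthesis (-1.83 ± 0.45) and the vacuolar transporter gene fnx1 (-1.72 ± 0.28). Of 60 cell wall genes 5 were (8.33%), including the alpha-glucan synthase gene ags1 at -1.57. In the uncharacterised class 11 of 167 were (6.59%), and SPAC7D4.12c among them gave -1.89, -1.74 and -1.94. The 8 members that matched no gene of the reference gave means between -2.12 and -1.503.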

How the data were processed

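The authors deposited integrated spot intensity per channel for 22176 spots on each of 3 two-colour arrays, quantified with TIGR Spotfinder per the labels' protocols and not normalized between channels; intensities had already been reduced by local background, and rejected spots carry the flag X. Their background columns and spot area, in pixels (unit other), served only in alternatives. The authors' deposited series matrix holds log10 values, normalized to the 50th percentile in GeneSpring per the labels. Its values tracked log10 immunoprecipitate intensity after background subtraction (r = 0.86, 0.81 and 0.81) more than the log2 ratio (r = 0.36, 0.26 and 0.35), with medians of 0.02, 0.05 and 0.03 and 25.2%, 37.6% and 30.9% of spots at the lowest value, -2. It was thus treated as values of a single channel; its centring is not known further. The sources used here give no versions and no genome build for the array.

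Ratios were log2 of Cy5 over Cy3 from the deposited intensities of spots accepted in both channels, minus the array median over intergenic and ORF spots, with repeat spots averaged. Features lacking a value on any of the 3 arrays were dropped. Control, foreign and unnamed features were left out. Mitochondrial features were left out of the nuclear ORF features, but stayed in the array median and the limma fit. Array names that match no gene, such as B8647-2, were kept. limma 3.58.1 in R 4.3.3 (lmFit and eBayes, mean against 0, Benjamini-Hochberg over all 5461 features) gave calls; it was tested on simulated data. Of 3218 nuclear ORF features 3079 matched a gene of ASM294v3 (95.7%) through systematic names, symbols and synonyms, as did 260 of 268 members. Functional classes came from words or symbols of that annotation. Members, classes and lists were chosen with earlier results of these data known. Named genes were the 12 lowest, the 4 on each side of the threshold, the extremes of SD, GC content and intergenic value, runs of adjacent members, and up to 3 lowest members of each class; other names, such as ngl1 and cwf29, were picked after their values were seen. Alternatives changed background, flags, normalization, centring, dim spots, repeat spots, threshold and arrays. The number of arrays limits the precision. A result that the rule for named genes would include is not reported here.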

Additional observations from a re-analysis of the deposited data

How the results depend on the processing

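No paired analysis was possible because there is a single group. The number of nuclear ORF features at or below -1.5, 268 here, was 488 after a further background subtraction, 665 after normexp, 1153 with no filter on flags, 150 after loess, 82 with centring on ORF spots, 111 without dim immunoprecipitate spots, 172 with block centring (added after seeing the data) and 2509 in the series matrix, a different quantity. Thresholds of -1.0, midway between -1.0 and -1.5, and of -2.0 gave 757, 494 and 65. Leaving out an array gave 189 to 360. The members' median of -1.74 became -2.22 with further background subtraction, over the 115 members still measured. It was -2.42 with normexp, -2.5 without the flag filter and -1.32 with centring on ORF spots. With an array left out it was -1.89 to -1.57. Members called depleted were 85 of 115 still measured after further background subtraction, 56 of 56 without dim immunoprecipitate spots and 7 of 268 in the series matrix, where 74.8% of member spots on replicate 2 lay at the lowest value. The median of the 83 intergenic features, 0.31, was 0.417 with normexp, 0.218 with loess and 0.738 with centring on ORF spots. Other settings also changed which intergenic features of members had a value. Their median was 0.589 over 254 features without the flag filter and 0.472 over 138 on at least 2 arrays. It was 0.149 over 66 without dim input and 0.217 over 29 without dim immunoprecipitate. In the series matrix it was reversed, at -1.91 over 254 features. There rejected spots enter at the lowest value, and accepted spots can also lie at it. The input difference of 0.947 became 1.12 with further background subtraction and 1.06 without dim immunoprecipitate spots. The immunoprecipitate difference of -0.397 became -0.121 with block centring. The GC difference of -0.331 percentage points became -0.0689, -0.181 and -0.525 at these 3 thresholds, and -0.193 for features at or below -1.0 after block centring. The length difference of 93 bases became 159 at -2.0, and 168 for features at or below -1.0 after block centring. Apart from constructions named here, the causes were not tested. The remaining 58 values moved by less than the spread between arrays, or for counts by less than 1.5 times.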
